A study of Mus musculus with 4 samples.

Results

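The miR-29 family was followed from mouse MIN6 cells into the exosomes that these cells release. The members were the mature strands listed by name as miR-29a, miR-29b and miR-29c, 7 of the 1915 mature mouse miRNAs in the deposited table. All 7 had counts in the cells, and all 7 were among the 438 miRNAs that could be tested. In the exosome libraries the 3 strands of the 3p arm were lower than in the cells on every scale examined, although for miR-29a-3p and miR-29b-3p the difference passed the test only when the scaling allowed for the different make-up of the libraries. The fourth strand that passed, miR-29b-1-5p, was represented by a single exosome read.

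A miRNA hairpin is cut into a duplex with a 5p and a 3p strand, of which 1 is usually loaded onto an Argonaute protein and guides it to mRNAs, while the other is mostly degraded. Targets are recognised mainly through the seed, the bases near the 5′ end of the loaded strand. In the miR-29 family the 3p strand is the usual guide, and it is known as a repressor of collagens and other extracellular matrix genes. In beta cells the family is known to hold down Mct1 (Slc16a1), a transporter of pyruvate and lactate whose silence keeps insulin release tied to glucose.

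MIN6, derived from a mouse insulinoma, secretes insulin and is used as a model of the pancreatic beta cell, so it stands for a single tumour line and not for islets. The 2 groups were the MIN6 cells (2 libraries) and exosomes from their culture medium (2 libraries), and the labels name no transgene and no treatment for either group. All cultures were kept in DMEM with exosome-depleted fetal bovine serum, penicillin-streptomycin and β-mercaptoethanol. The exosomes were collected by stepwise centrifugation, filtration and ultracentrifugation of the medium. The labels do not say whether the libraries of a group came from separate cultures, so p-values measure the spread between these libraries, which may be technical.

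The mature sequences are shown because the family is defined by them. They were identical in the deposited files and in RefSeq for all 7 members (the prefix mmu-, for mouse, is left out in the text), and capitals mark the seed, bases 2 to 8 from the 5′ end.
mmu-miR-29a-3p: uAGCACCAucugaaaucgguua
mmu-miR-29b-3p: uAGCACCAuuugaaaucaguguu
mmu-miR-29c-3p: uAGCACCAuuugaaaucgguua
mmu-miR-29a-5p: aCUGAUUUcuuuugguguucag
mmu-miR-29b-1-5p: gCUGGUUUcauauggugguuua
mmu-miR-29b-2-5p: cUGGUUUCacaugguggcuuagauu
mmu-miR-29c-5p: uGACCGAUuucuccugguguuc
The 3p strands shared 1 seed, and among the 1851 listed miRNAs with a sequence no other held it. Counted from 1 at the 5′ end, miR-29c-3p differed from miR-29a-3p by C10U alone. miR-29b-3p differed from miR-29a-3p by C10U, G18A, U21G and A22U and was 1 base longer. The 4 strands of the 5p arm had 4 different seeds, and of these only the seed of miR-29b-2-5p occurred in another listed miRNA, miR-6338.

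The members come from 4 hairpins in 2 clusters of the mouse genome (GRCm38.p6). Mir29a lies at chr6:31062660-31062747 and Mir29b-1 at chr6:31063023-31063093, both on the minus strand with 275 bases between them. Mir29b-1 overlaps a long non-coding RNA of the same strand, Gm27019, partly within an exon. Mir29b-2 lies at chr1:195037040-195037120 and Mir29c at chr1:195037547-195037634, both on the plus strand with 426 bases between them. Both are inside exons of the non-coding transcript A330023F24Rik and opposite an exon of Cd46, which lies on the minus strand. miR-29b-3p has the same sequence in both of its hairpins, and nearly all of its reads were deposited at both of them. In the first cell library, for example, 4117 reads were listed at mir-29b-1 and 4136 at mir-29b-2 for a mature count of 4140, so miR-29b-3p could not be divided between the clusters.

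The libraries differed strongly in depth. The cell libraries held 2930217 and 2564068 counts on mature miRNAs, the exosome libraries 47447 and 31409. A floor of 3 counts corresponded to 1.02 and 1.17 RPM (reads per 1000000 mature miRNA reads of the library) in the cells and to 63.2 and 95.5 RPM in the exosomes. The floors and intervals in this text account for counting error only. Library quality was checked on a TapeStation for the cells and on a Bioanalyzer for the exosomes, so handling and group cannot be told apart.

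In RPM, all 3 guide strands were lower in both exosome libraries than in both cell libraries. The share of all tested miRNAs for which this held in RPM was not counted. With library size as the only scaling, 190 of the 438 tested miRNAs had a negative log2 fold change of exosomes over cells. miR-29a-3p, the most abundant member, was counted 12320 and 13095 times in cells, and 90 and 22 times in exosomes. In RPM this was 4204 and 5107 in the cells against 1897 and 700 in the exosomes. It was the 30th and 27th most abundant miRNA of the cell libraries and the 60th and 81st of the exosome libraries, so the exosome libraries were the lower ones by level and by rank, with no overlap.

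miR-29b-3p is the only member produced from both clusters. It was counted 4140 and 4276 times in cells, and 34 and 3 times in exosomes, which is 1413 and 1668 RPM against 717 and 95.5 RPM. Both exosome libraries were below both cell libraries, but they lay far apart from each other, and the second was at the floor of 3 counts. miR-29c-3p, which shares all but 1 base with miR-29a-3p, was counted 2055 and 2089 times in cells, and 6 and 3 times in exosomes. Its levels of 701 and 815 RPM in the cells and 126 and 95.5 RPM in the exosomes did not overlap, and here the exosome libraries were close to each other. The plot of RPM by library shows these 3 strands as separated groups.

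**Figure D1:**
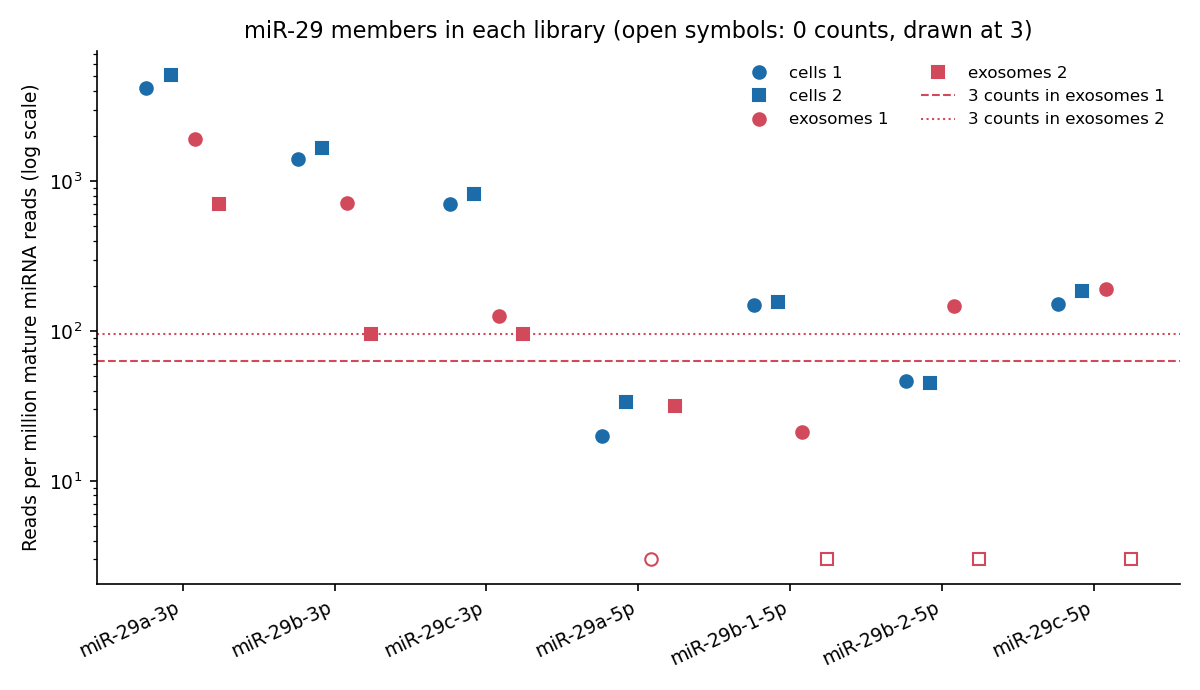
Level of each miR-29 member in each of the 4 libraries, in RPM on a log axis, with cells in blue, exosomes in red and open symbols for 0 counts; the dashed and dotted lines mark the floor of 3 counts in the exosome libraries. The 3p strands of the exosomes lie below those of the cells, and 4 of the 8 exosome values of the 5p strands are at 0.

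At an unchanged share of the library, the exosome libraries would have been expected to hold 221 and 146 counts of miR-29a-3p, 73.1 and 48.4 of miR-29b-3p and 36.0 and 23.8 of miR-29c-3p. Each observed count was lower than its expectation. As means, miR-29a-3p was at 4656 ± 638 RPM in cells and 1299 ± 846 RPM in exosomes (SD, n = 2 each), miR-29b-3p at 1540 ± 180 and 406 ± 439 RPM, and miR-29c-3p at 758 ± 80.2 and 111 ± 21.9 RPM. The family as a whole took 0.669% and 0.801% of the mature counts of the cells. In the exosomes it took 0.310% (95% Wilson interval 0.264 to 0.364) and 0.0923% (0.0643 to 0.133), so that the means were 0.735% ± 0.0934 and 0.201% ± 0.154 (SD, n = 2 each). With 2 libraries a group, the smallest p of an exact permutation test is 0.333. These are shares of bulk RNA, in which fewer vesicles that carry a strand and fewer copies per vesicle cannot be told apart.

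The members were then tested among all 438 miRNAs with edgeR's quasi-likelihood test, with TMM scaling and Benjamini-Hochberg adjustment over all tested miRNAs. A miRNA is called here when its adjusted p is under 0.05. Of the 7 members, 4 were called lower in exosomes, against a background of 29.5% of all tested miRNAs called lower. By this test 0 of the 7 were called higher, where the background was 23.7%. Of the members 0 were higher at an unadjusted p under 0.05, and 0 were called higher with DESeq2 or with edgeR's exactTest. All 4 strands of the 5p arm had 0 counts in an exosome library and so passed the filter on low counts through the cells, which makes the count of called members a description only.

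All 3 guide strands passed the quasi-likelihood test. By log2 fold change of exosomes over cells, miR-29c-3p was at -4.09 (SE 0.44, edgeR quasi-likelihood adjusted p = 0.00714), miR-29b-3p at -3.28 (SE 0.83, adjusted p = 0.0344) and miR-29a-3p at -3.21 (SE 0.56, adjusted p = 0.0158). The order among the 3 was not tested. In each fit that left out 1 library, the log2 fold changes of all 3 stayed negative. Such a fit sets 1 library against 2, takes its spread from the pair alone and assumes that the lone library varies likewise. These fits therefore say little about stability. The value of miR-29b-3p rested most on single libraries, with -2.50 without the second exosome library, -4.75 without the first and -4.23 without the first cell library. Without the first cell library miR-29a-3p was at -4.10 and miR-29c-3p at -4.91. In CPM (the same scale with TMM factors applied), both exosome libraries were below both cell libraries for 6 of the 7 members, the exception being miR-29b-2-5p, and the same held for 51.8% of all tested miRNAs.

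**Figure D2:**
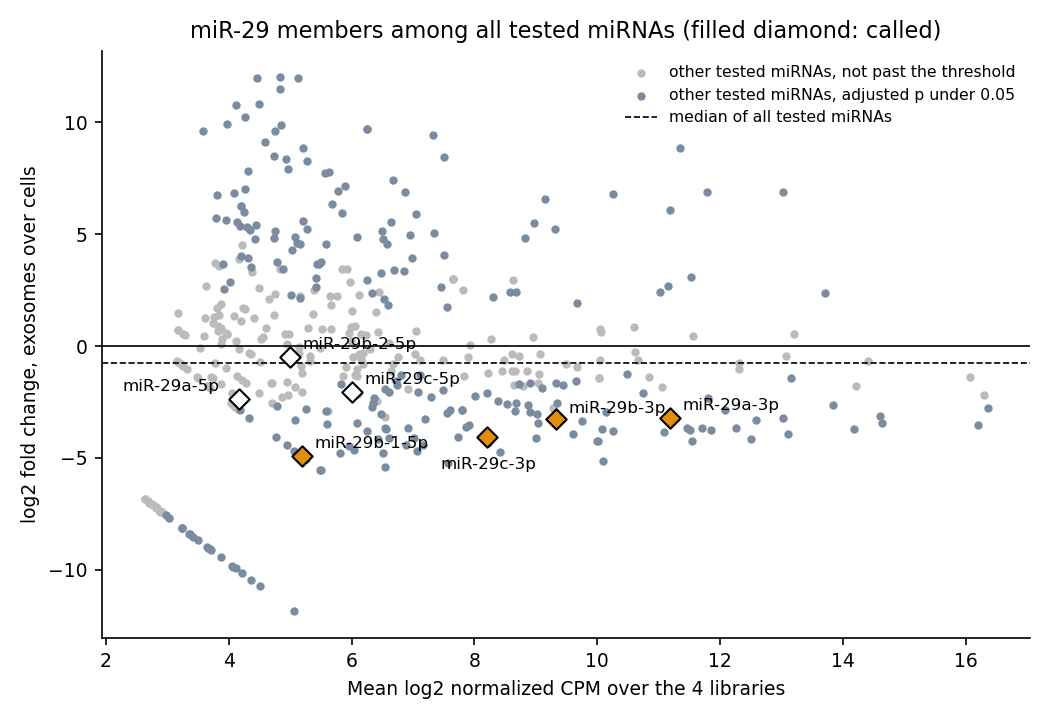
Log2 fold change of exosomes over cells against the mean log2 normalized CPM over the 4 libraries for the 438 tested miRNAs, with miR-29 members as diamonds, filled where the adjusted p is under 0.05, and the median of all tested miRNAs as a dashed line at -0.75. The 4 called members lie between -4.94 and -3.21, and the 3 members that were not called are 5p strands at -2.38, -2.05 and -0.49.

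How far below the cells the exosomes lay depended on the scaling. TMM gave the cell libraries factors of 0.660 and 0.612 and the exosome libraries factors of 1.80 and 1.38. Under it the median log2 fold change was -3.21 over the members and -0.75 over all tested miRNAs. With library size alone that median was 0.61 for all tested miRNAs and -1.82 for the members, and with upper quartile scaling it was -0.07 and -2.52. Without a scaling factor 2 of the 7 members were called lower, miR-29c-3p at -2.74 (edgeR quasi-likelihood adjusted p = 0.0165) and miR-29b-1-5p at -3.58 (adjusted p = 0.0345), where the background was 6.85%. There miR-29a-3p was at -1.82 (edgeR adjusted p = 0.0844) and miR-29b-3p at -1.87 (adjusted p = 0.167), neither of them called. With the threshold that the study states, an unadjusted exactTest p under 0.05 and a fold of at least 2, miR-29c-5p was added and 5 of the 7 were lower, with a background of 37.9%.

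**Figure D3:**
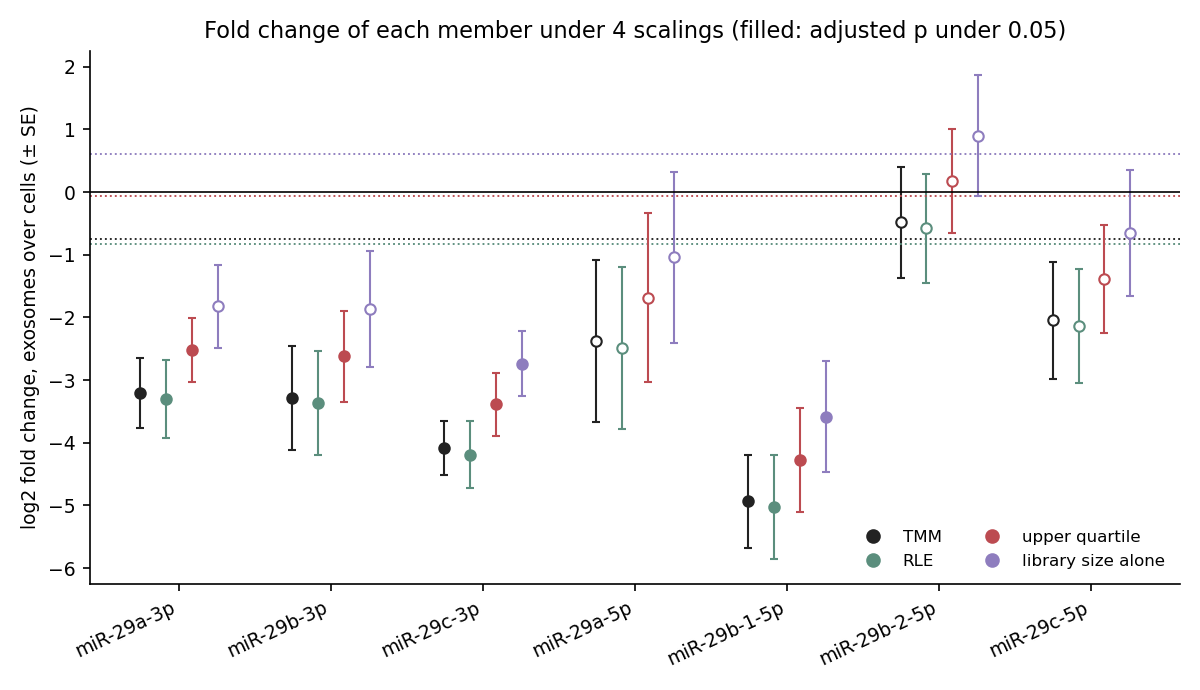
Log2 fold change of exosomes over cells (± SE) for each member under TMM, RLE, upper quartile and library size scaling, filled where the adjusted p is under 0.05, with the median of all tested miRNAs under each scaling as a dotted line of the same colour. The 3p strands and miR-29b-1-5p are below the median line of every scaling, and miR-29b-2-5p crosses 0.

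The 5p strands, the usual passengers, were sparse even in the cells. miR-29b-1-5p was counted 436 and 399 times in cells, or 149 and 156 RPM, and 1 and 0 times in exosomes. It was called lower at a fitted log2 fold change of -4.94 (SE 0.74, edgeR quasi-likelihood adjusted p = 0.0116). That fitted value depends on how 0 counts are handled. It was -4.23 without the second exosome library and -11.14 without the first, where no exosome read was left, and the strand did not pass the filter when either cell library was left out. Pooled over libraries, the ratio of cells to exosomes was 30.5 with TMM scaling (95% counting interval 5.45 to 1205) and 12.0 by library size alone (2.15 to 474).

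miR-29a-5p was counted 58 and 86 times in cells, and 0 and 1 times in exosomes, or 19.8 and 33.5 RPM against 0 and 31.8 RPM. At an unchanged share of the library 1.27 and 0.838 exosome counts would have been expected, so a decrease in that share was not detectable at this depth. With TMM scaling the expectation was 3.60 and 1.82 counts. The pooled ratio of cells to exosomes was 5.25 with TMM scaling (0.928 to 209), and the adjusted p of edgeR's quasi-likelihood test was 0.181. Without the filter on low counts the strand was called lower, at a fitted log2 fold change of -3.60 (edgeR quasi-likelihood adjusted p = 0.0416). That setting moved the whole scale. On the same counts miR-29a-3p went from -3.21 to -4.48. The median of all tested miRNAs was -1.67 without the filter and -0.75 with it, so the call is no added support for a decrease.

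The 5p strands of the chromosome 1 cluster behaved unevenly between the exosome libraries. miR-29c-5p was counted 447 and 471 times in cells, and 9 and 0 times in exosomes, or 153 and 184 RPM against 190 and 0 RPM. miR-29b-2-5p was counted 136 and 115 times in cells, and 7 and 0 times in exosomes, or 46.4 and 44.9 RPM against 148 and 0 RPM. For both strands the first exosome library was above both cell libraries in RPM and the second was at 0, so the groups overlapped.

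Neither was called. miR-29c-5p had a log2 fold change of -2.05 (SE 0.94, edgeR quasi-likelihood adjusted p = 0.129), and miR-29b-2-5p of -0.49 (SE 0.88, adjusted p = 0.651). miR-29c-5p was called when either exosome library was left out, at -1.22 without the second (edgeR adjusted p = 0.0416) and at a fitted -11.28 without the first (adjusted p = 0.00391), which left it with 0 exosome counts. These fits have 1 exosome library and take their spread from the cells, and the library behind the value of -1.22 was above both cell libraries in RPM. For miR-29b-2-5p the sign turned with the setting, to 0.90 with library size alone, 0.18 with upper quartile scaling and 0.30 without the second exosome library.

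The make-up of the family was compared next as shares within a library, which no scaling changes. Among the 3p counts of the cells, miR-29a took 66.5% and 67.3%, miR-29b 22.4% and 22.0%, and miR-29c 11.1% and 10.7%. The cell libraries were thus within 1 percentage point of each other for each strand. In the first exosome library, with 130 counts of the 3p strands, the shares were 69.2%, 26.2% and 4.62%. In the second, with 28, they were 78.6%, 10.7% and 10.7%. The order with miR-29a first was the same in all 4 libraries. The share of miR-29c in the first exosome library had a Wilson interval of 2.13 to 9.70%, below both cell values, whereas that of the second, 3.71 to 27.2%, included them.

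The 3p strand was the larger part of miR-29a and of miR-29b in all 4 libraries, and of miR-29c in 3 of the 4. The 3p strand made up 99.5% and 99.3% of the miR-29a counts in the cells and 100% (90 of 90) and 95.7% (22 of 23, Wilson interval 79.0 to 99.2) in the exosomes, the last value resting on a single 5p read. For miR-29b, with both 5p strands summed, it made up 87.9% and 89.3% in the cells and 81.0% (34 of 42) and 100% (3 of 3) in the exosomes. For miR-29c it made up 82.1% and 81.6% in the cells.

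In the first exosome library the 3p strand of miR-29c was the smaller of the pair, with 6 of 15 counts or 40.0% (Wilson interval 19.8 to 64.3), and in the second all 3 counts were 3p. The interval of the first library excludes the cell values. That of the second, 43.9 to 100%, includes them, so the exosome libraries do not give 1 direction. In that first exosome library 171 hairpins had both arms listed and at least 10 counts, with a median minor-arm share of 1.80%. In the cell libraries 341 and 315 hairpins did, with medians of 5.88% and 6.13%. The depth and the set of hairpins differ between these libraries, so the medians were not compared.

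**Figure D4:**
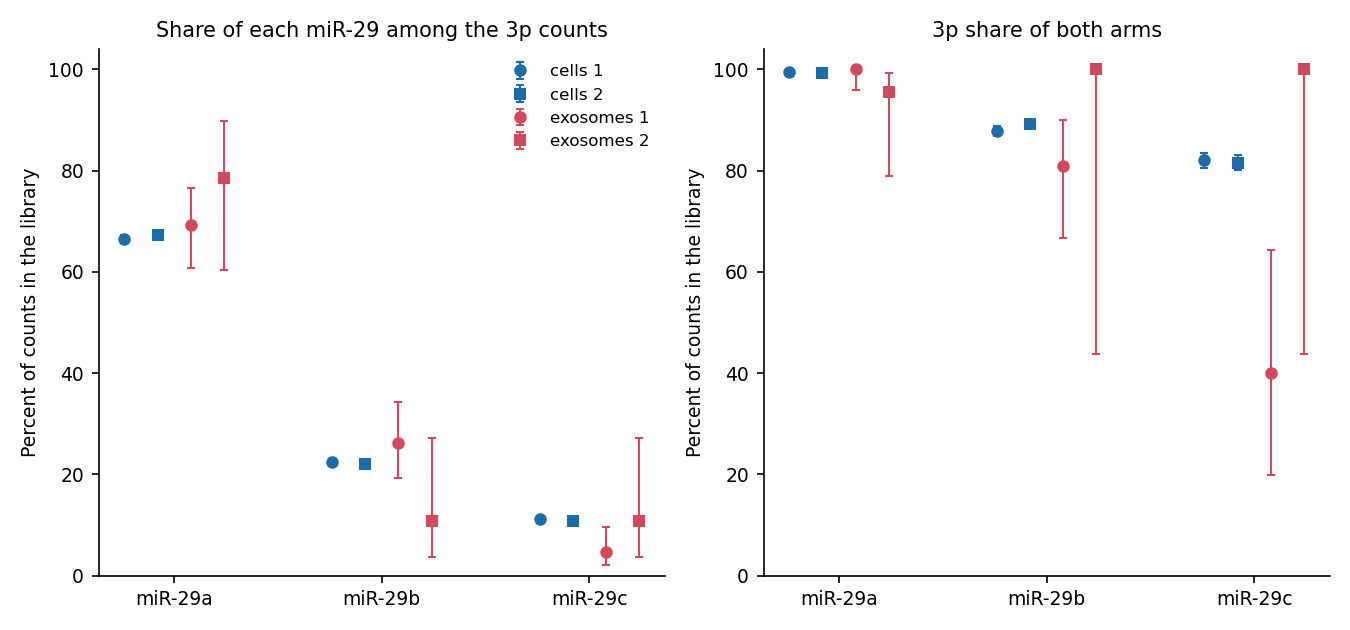
Left, share of miR-29a, miR-29b and miR-29c among the 3p counts of each library, and right, share of the 3p strand among both arms of each, in percent of the counts with 95% Wilson intervals for each library. The cell libraries coincide, and miR-29c of the first exosome library lies below them in both panels, at 4.62% on the left and 40.0% on the right.

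The 5p strands, unlike miR-29b-3p, tell the clusters apart. In the cells the chromosome 1 cluster (miR-29b-2-5p and miR-29c-5p) held 583 of 1077 counts of the 5p arm (54.1%) and 586 of 1071 (54.7%). In the first exosome library it held 16 of 17 (94.1%, Wilson interval 73.0 to 99.0). The second had a single 5p count, from miR-29a of chromosome 6, and gives no share that could be compared. Within miR-29b, the strand of mir-29b-1 supplied 76.2% and 77.6% of the 5p counts in the cells and 1 of 8 in the first exosome library (12.5%, Wilson interval 2.24 to 47.1). These intervals exclude the cell values, but the difference rests on 1 library.

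The reads on the miR-29 hairpins sat on the annotated arms. Each hairpin had between 0 and 3 reads on neither arm in the cells and 0 in the exosomes. Over all hairpins the reads off the arms came to 10.9% and 9.58% in cells, and to 32.8% and 42.0% in exosomes. These shares pool the reads of all hairpins, so a few hairpins with many reads can set them. How many hairpins had no reads off the arms was not counted, so this is not shown to be particular to the family. The exosome reads of this family, few as they were, all sat on the mature strands.

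The miRNAs whose normalized levels over the 4 libraries were nearest to those of miR-29a-3p were miR-744-5p, miR-183-5p, miR-483-3p, miR-7b-5p and miR-23b-3p. Their Euclidean distances on log2 CPM were 0.741, 0.914, 0.928, 1.37 and 1.49, whereas miR-29b-3p was at 3.88 and miR-29c-3p at 6.05. These other miRNAs were picked as the nearest of all tested, so the larger distances of the 3p strands say nothing particular about the family. Distance mixes level and difference, and 4 libraries say little about likeness.

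A list of 16 other miRNAs known from beta-cell identity or insulin secretion was set beside the family. Of the 12 that were tested, 6 were called lower, beside the 29.5% of all tested miRNAs, and 0 were higher, also at an unadjusted p under 0.05. The 12 had a median log2 fold change of -1.57. Those lower were both strands of miR-375, which restrains insulin release, the islet-enriched miR-7a-5p and miR-7b-5p, miR-148a-3p, which supports insulin expression, and miR-200c-3p of the epithelial miR-200 family. miR-375-3p was counted 26702 and 25335 times in cells, and 507 and 222 times in exosomes (log2 fold change -1.43, SE 0.42, edgeR quasi-likelihood adjusted p = 0.0475), a smaller difference than that of any called miR-29 strand. In RPM it was at 9113 and 9881 in cells and at 10686 and 7068 in exosomes, so on that scale the groups overlapped. miR-148a-3p had 0 counts in an exosome library and passed the filter through the cells, so the count of 6 is a description only. With library size alone 1 of the 12 was called lower, beside 30 of all 438 tested miRNAs (6.85%). Only 9 of the list could be tested when either cell library was left out.

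miR-124-3p, which also represses Mct1, was counted 1618 and 1342 times in cells, and 163 and 39 times in exosomes. Its log2 fold change was 0.75 (SE 0.49, edgeR quasi-likelihood adjusted p = 0.245), and so it was not called, in contrast to the miR-29 guide strands. The difference between miR-124-3p and the miR-29 strands was not tested.

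In summed RPM, the erythroid, myeloid, liver and stromal markers were higher in both exosome libraries than in the cells, and the muscle markers overlapped. The 3 beta-cell markers were present in all 4 libraries and summed to 36306 and 36333 RPM in the cells and to 19116 and 8182 RPM in the exosomes. Most of that difference lay in miR-7a-5p, at 26831 and 26158 RPM in cells and 8304 and 1019 RPM in exosomes, while miR-375-3p overlapped between the groups. The 3 erythroid markers summed to 1.02 and 1.56 RPM in the cells and to 5838 and 987 RPM in the exosomes, with miR-451a and miR-144-3p at 0 in both cell libraries. The 3 myeloid markers summed to 0.341 and 0.390 RPM against 1686 and 669 RPM, with miR-142a-3p at 0 in the cells. The liver marker miR-122-5p was at 4.44 and 8.19 RPM against 1665 and 1974 RPM, and the 3 stromal markers summed to 14.3 and 9.36 RPM against 1307 and 1401 RPM. The 2 muscle markers summed to 16.0 and 11.3 RPM against 63.2 and 0 RPM, with miR-133a-3p at 0 in all 4 libraries. The part of such RNA in the lower share of miR-29 was not tested.

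Sequence features known from work on miRNA location were looked up in the members, on the miRNA strand. GGAG, known from exosome sorting, was in 0 of the 7 members and in 14.0% of the 1851 listed miRNAs with a sequence. CCCU was in 0 of the 7 and in 11.3%. GGCU was in miR-29b-2-5p alone and in 12.5% of the listed miRNAs. AGUGUU, the 3′ end that is known to direct miR-29b to the nucleus, was in miR-29b-3p alone and in 0.702%. A match is a description of the letters and not of a bound factor.

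The match of the family's seed to Mct1 is shown because that gene is the reason for interest in these miRNAs in beta cells. The longest annotated 3′ UTR of Slc16a1 (2740 bases, GENCODE vM21) holds TGGTGCT, the complement of the shared 3p seed, at 1 place, bases 74 to 80 after the stop codon. It is printed with its surroundings at chr3:104655788-104655809 (GRCm38.p6, plus strand), with the match in capitals.
Slc16a1 3′ UTR: tctaccagTGGTGCTcagtgca
Of 1195 mouse 3′ UTRs within 10% of that length, 286 (23.9%) hold the same letters on the transcript strand. The level of Mct1 was not measured in these libraries.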

How the data were processed

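Small RNA was isolated with the miRNeasy Serum/Plasma kit according to the labels, converted with the SMARTer smRNA-Seq kit, which adds a poly(A) tail and switches templates, and run on a HiSeq2500. For its qRT-PCR the study names that kit for the exosomes only and the mirVana kit for the cells. Whether the kits also differed between the groups for sequencing cannot be told from these sources. After trimming adapters and removing reads of rRNA, the authors mapped the others to the genome, miRBase v21 and RNAcentral, and they deposited whole counts per mature miRNA and RPM. The submitters' processing notes name mm10, and tool versions are not given in the sources used here. The deposited RPM equals the count over the library sum. The deposited counts per hairpin and arm were used for the reads off the arms and for the reads of miR-29b-3p at its hairpins. The shares of the arms came from the counts per mature miRNA.

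Groups came from the labels. miRNAs were kept by filterByExpr (minimum count 10, 438 of 1101 with a count) and compared with the quasi-likelihood test of edgeR 4.0.16 (R 4.3.3), with log CPM at a prior count of 2. Libraries of a group were not repeats of 1 library within counting error (chi-square over its degrees of freedom 10.7 in cells, 22.6 in exosomes). Alternatives were other scalings, filters, DESeq2 1.42.0, exactTest, the replicate number as a block and each library left out. Members and lists were chosen with earlier results of these data known. All 7 members, the listed beta-cell miRNAs that passed, and the 5 miRNAs nearest to the most abundant member are named. miR-124-3p was named for its target. Python 3.11.15, scipy 1.17.1 and matplotlib 3.10.9 were used.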

Additional observations from a re-analysis of the deposited data

How the results depend on the processing

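Members called lower numbered 4 with TMM, RLE, upper quartile, DESeq2 and the replicate block, and 5 with exactTest. They numbered 6 without a filter on low counts and 2 with library size alone. Without the filter the median log2 fold change was -4.48 over the members and -1.67 over all tested miRNAs, against -3.21 and -0.75 with it. With at least 10 counts required in every library, 1 member was tested and called lower. Of all 438 tested miRNAs, 129 were called lower with TMM, 132 with RLE, 95 with upper quartile and 135 with DESeq2. The replicate block gave 109, exactTest 166 and library size alone 30. Without a filter 202 of 1101 were called lower, and with at least 10 counts in every library 40 of 100. The counts of members are descriptions only. With no library left out, 0 members were called higher in any setting. Without either cell library only 3 members could be tested. The sign of miR-29b-2-5p turned to 0.90 with library size alone, 0.18 with upper quartile scaling and 0.30 without the second exosome library, within a range of -9.40 to 0.30 with 1 exosome library left out. Of the beta-cell list 6 were called lower in the main comparison, 5 with the replicate block, 1 with library size alone, 10 without a filter, 3 with at least 10 counts in every library and 3 to 9 with 1 library left out (3 of 9 tested without either cell library, 7 of 13 and 9 of 13 without the first and second exosome library), and 0 to 1 were then called higher. Same-numbered libraries share only a number (correlation of deviations 0.194), and the block changed no call among the members. The family's share was 2.18% in cells and 0.314% in exosomes without let-7 in the denominator (0.735% and 0.201% with it), and 1.67% in cells and 0.438% in exosomes without the 5 most abundant miRNAs of each group. The floor of 3 exosome counts was a chosen setting, and the smallest detectable difference was not measured. The cause of these changes was not tested.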
